A study of Mus musculus with 6 samples.

Results

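Cell division and DNA replication genes were followed in the larger proximal airways of Foxp1/4 mutant and control mice. The list holds 41 genes, 16 that act in S phase and 25 that act mainly in mitosis. A gene was measured if the platform's annotation gave a row with its symbol alone, and of several such rows the brightest on average was taken. In this way 40 of the 41 genes were measured (16 S phase and 24 mitotic genes) out of 19938 genes in all. Ccnb1, which encodes cyclin B1, had no such row.

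The study hybridised airway RNA to 6 Affymetrix mouse gene arrays, from 9-week-old mice on a mixed C57BL/6 and 129X1 background whose frozen, stained lung sections were dissected by hand. The mutant arrays (3) came from Scgb1a1-Cre mice with both alleles of Foxp1 and of Foxp4 floxed, and the control arrays (3) from mice with Scgb1a1-Cre alone, so both groups carried the driver. The Scgb1a1 promoter is known from club cells, secretory cells that line the airways, so deletion is not expected in cells outside that lineage, such as lymphocytes and muscle. Deletion was not measured by cell type. Foxp1 averaged 9.30 ± 0.05 in mutant and 9.53 ± 0.10 in control arrays and Foxp4 8.22 ± 0.40 and 8.91 ± 0.13 (log2 values, SD, n = 3 each), and neither difference passed (limma adjusted p = 0.444 and 0.340). The club cell marker Scgb1a1 read 12.13 to 12.58 on every array and the ciliated cell marker Foxj1 8.27 to 9.10. The labels do not say whether every array stands for another mouse. The p-values therefore cover only how much these arrays vary, and that may be technical in part.

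A cell that divides first copies its DNA and then separates the copies. In G1 the MCM helicase is loaded on origins of replication, cyclin E with its kinase and the E2F factors open S phase, and the ring-shaped clamp PCNA holds the polymerases on the copied strand. Cyclin A and cyclin B with Cdk1 then drive the cell into mitosis, where kinetochores join chromosomes to spindle microtubules and a checkpoint delays anaphase until all are joined. Transcripts of these genes accumulate in cycling cells and are scarce in resting ones. The adult airway epithelium renews slowly, and cells that cycle in a piece of airway can also be lymphocytes, stromal cells or others. In a bulk sample, fewer cycling cells and less RNA per cell cannot be told apart.

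The promoters of such genes are known for a few short motifs: the cell cycle genes homology region (CHR), here searched as TTTGAA; the CCAAT box bound by NF-Y, searched as CCAAT; and the E2F site, searched as TTTGGCGC, TTTCCCGC, TTTGCCGC or TTTCGCGC. Each was searched on both strands of the RefSeq promoter windows (GRCm38.p6, 250 bases before to 50 after a gene start), which held 34 of the 40 measured genes. CHR letters were found in 15 of 20 windows of mitotic genes (75.0%), in 2 of 16 windows of S phase genes (12.5%) and in 17.9% of all 32851 windows. CCAAT letters stood in 17 of 20 mitotic windows (85.0%), 12 of 16 S phase windows (75.0%) and 37.4% of all windows. E2F letters stood in 3 of 20 mitotic windows (15.0%), 6 of 16 S phase windows (37.5%) and 2.3% of all windows. These are matches of letters and not shown to be bound sites. The 250 bases before the gene start are printed for 5 genes described here, chosen because they carry the letters in this stretch: CHR in 3 mitotic genes and E2F in 2 subunits of the MCM helicase. They are examples of the motifs and do not stand for their sets. In these 250 bases alone, CHR letters stood in 8 of 20 mitotic windows (40%), 2 of 16 S phase windows (12.5%) and 16.0% of all windows, and E2F letters in 2 of 20 (10%), 5 of 16 (31.2%) and 1.9%. Each is given 5′ to 3′ on the gene's strand, with every match of the motifs or of their reverse complements in capitals; no base belonged to matches of different motifs, though E2F matches on opposite strands overlap in Mcm5 and Mcm6. The stretches are chr11:99024190-99024439 on the minus strand for Top2a, chr10:69352913-69353162 on the minus strand for Cdk1, chr7:135716380-135716629 on the minus strand for Mki67, chr8:75109259-75109508 on the plus strand for Mcm5 and chr1:128359706-128359955 on the minus strand for Mcm6.
Top2a: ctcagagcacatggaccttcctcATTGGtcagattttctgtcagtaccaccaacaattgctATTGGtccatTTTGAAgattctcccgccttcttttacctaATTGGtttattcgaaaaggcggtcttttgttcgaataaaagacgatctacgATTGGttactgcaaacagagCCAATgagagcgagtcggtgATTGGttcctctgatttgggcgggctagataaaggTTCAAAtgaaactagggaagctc
Cdk1: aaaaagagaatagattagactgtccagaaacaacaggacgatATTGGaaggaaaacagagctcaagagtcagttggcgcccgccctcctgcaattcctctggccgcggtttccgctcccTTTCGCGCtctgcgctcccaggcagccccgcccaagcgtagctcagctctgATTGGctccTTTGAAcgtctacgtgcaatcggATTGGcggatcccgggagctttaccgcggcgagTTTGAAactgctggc
Mki67: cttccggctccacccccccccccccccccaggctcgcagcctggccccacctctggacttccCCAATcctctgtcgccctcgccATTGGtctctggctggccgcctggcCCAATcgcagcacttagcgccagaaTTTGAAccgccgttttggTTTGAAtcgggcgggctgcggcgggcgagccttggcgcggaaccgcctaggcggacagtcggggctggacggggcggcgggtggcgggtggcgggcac
Mcm5: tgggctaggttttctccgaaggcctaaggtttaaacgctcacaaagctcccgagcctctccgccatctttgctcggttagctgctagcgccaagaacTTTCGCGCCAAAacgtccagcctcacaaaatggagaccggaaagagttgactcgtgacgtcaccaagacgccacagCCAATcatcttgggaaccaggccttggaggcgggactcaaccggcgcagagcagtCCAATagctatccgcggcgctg
Mcm6: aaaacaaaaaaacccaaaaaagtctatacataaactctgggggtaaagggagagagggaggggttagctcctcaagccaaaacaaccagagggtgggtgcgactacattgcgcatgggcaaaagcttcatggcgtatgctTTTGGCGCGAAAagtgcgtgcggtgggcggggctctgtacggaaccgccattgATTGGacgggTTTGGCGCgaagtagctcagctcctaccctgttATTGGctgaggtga

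No cell division or replication gene passed the test between mutant and control arrays. With limma and Benjamini-Hochberg adjustment over all 19938 genes, 0 of 40 were called in either direction, against 0.266% of all genes (47 higher, 0.236%, and 6 lower, 0.0301%), and the lowest adjusted p was 0.382, of Cenpa. At an unadjusted p under 0.05 there were 5 of 40, all lower in mutants (12.5%, where 4.17% of all genes were): Mcm2, Rrm2, Aurkb, Cenpa and Ncapd2. The mutant mean lay below the control mean for 39 of 40 genes, as it did for 45.4% of all genes, and Kif11 was the exception (38 of 40 after repeated quantile normalisation or median centring, where Kif23 turned too). Their median log2 difference, mutant minus control, was -0.40, with -0.35 for S phase genes and -0.43 for mitotic genes, and 0.02 over all genes. At least a 1.5-fold lower mutant mean was reached by 11 of 40, 3 S phase and 8 mitotic genes, against 2.94% of all genes, and at least a 1.5-fold higher one by 0 of 40, against 1.68%. Only Cenpa had mutant arrays that all lay below all control arrays, 1 of 40 where 5.64% of all genes did, and 0 of 40 had mutants that all lay above, where 9.33% did. Most of the 40 genes varied together over the arrays, so these counts are not counts of independent genes.

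The arrays within the control group differed more than the groups did. The mean log2 value over the 40 genes was 6.31, 6.42 and 6.23 in mutants 1, 2 and 3, and 5.99, 7.18 and 7.01 in controls 1, 2 and 3. Control 1 was the lowest of all 6 arrays and controls 2 and 3 were the highest. Both of these controls stood above every other array for 36 of 40 genes, where 9.61% of all genes did so, and control 1 was the lowest array for 28 of 40, against 13.7% of all genes. The SD among the control arrays was larger than that among the mutant arrays for 39 of 40 genes, against 50.9% of all genes, with medians of 0.64 in controls and 0.16 in mutants. E2f1 was the exception.

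**Figure D1:**
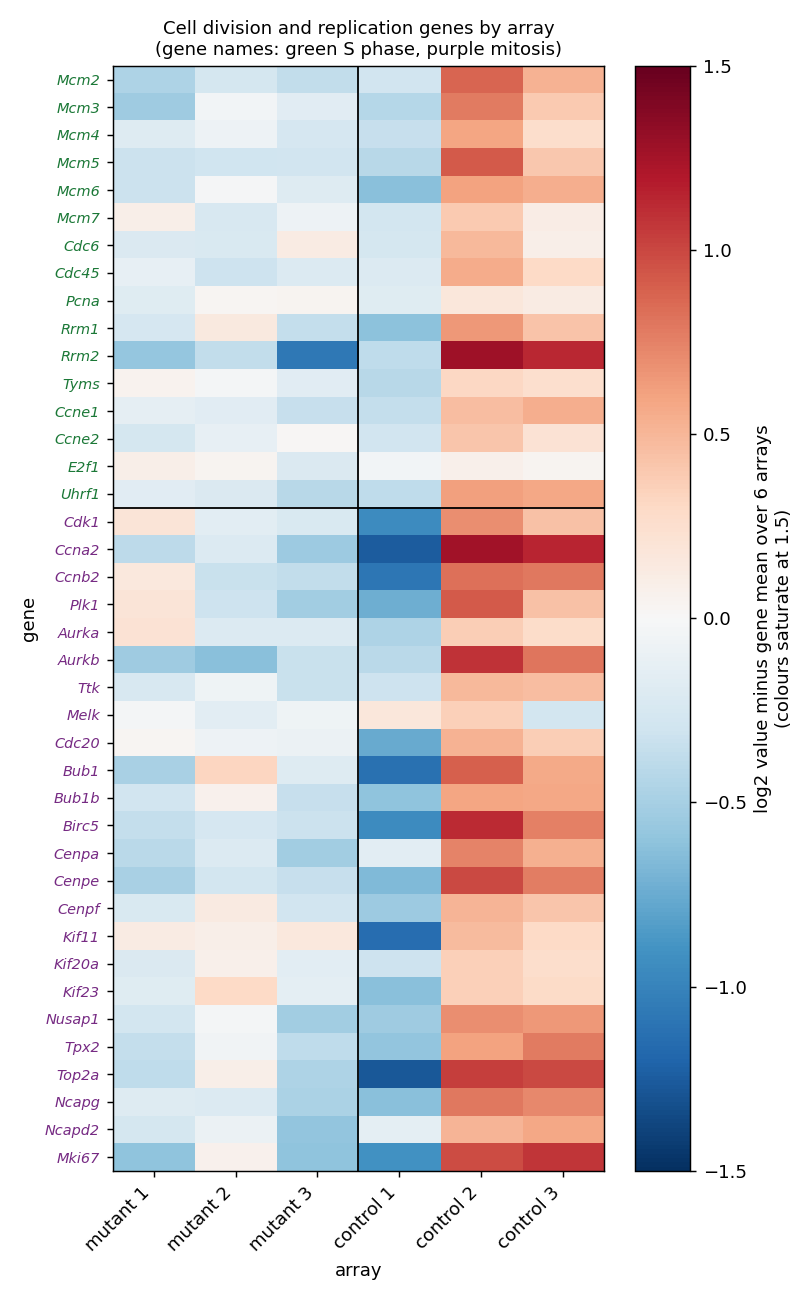
Log2 value of each gene minus its mean over the 6 arrays, as colour, with arrays as columns (mutants left of the line, controls right) and genes as rows (S phase above the line, mitosis below). Controls 2 and 3 are red for nearly every gene, while control 1 is the lowest array for 28 of 40 genes and lies above every mutant for Cenpa and Melk.

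Without control 1 the comparison gave 16 calls among the 40 genes, all lower in mutants, 5 S phase and 11 mitotic genes (limma adjusted p under 0.05; 1.36% of all genes were called lower in that setting and 1.95% in either direction). The genes called there were Mcm2, Mcm6, Rrm2, Ccne1, Uhrf1, Ccna2, Aurkb, Ttk, Birc5, Cenpa, Cenpe, Nusap1, Tpx2, Top2a, Ncapg and Mki67. Ccna2 had the lowest adjusted p of these (0.0122, log2 difference -1.59). Leaving out any other single array gave 0 calls among the 40. At an unadjusted p under 0.05, lower genes then numbered 3 when mutant 2 was left out, 0 for either of the other mutants, 0 for control 2 and 1 for control 3. Without control 1 they numbered 33, against 6.89% of all genes. The number of cell division genes called rested on control 1. That array was the lowest for 28 of these same 40 genes. Leaving it out raised the control mean and narrowed the controls for most of them. The 16 calls therefore follow in part from that order and are no separate support for a lower level in mutants.

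**Figure D2:**
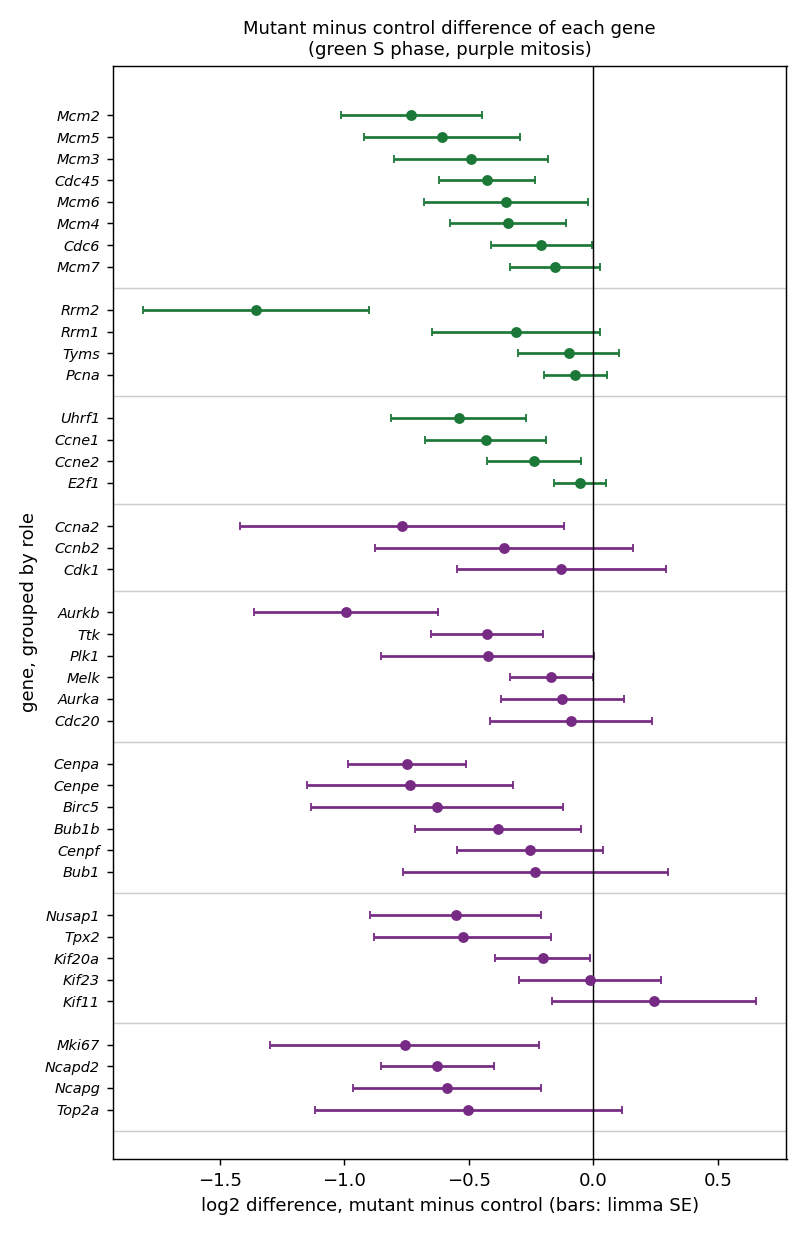
Log2 difference, mutant minus control, of each gene (points) with limma's standard error (bars), grouped by role with S phase in green and mitosis in purple. All points but Kif11 lie at or left of 0, and Rrm2 lies farthest left at -1.35.

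The MCM complex is a ring of 6 related subunits, Mcm2 to Mcm7, that unwinds DNA at the replication fork. Mcm2 read 6.19, 6.39 and 6.28 in mutants 1 to 3, and 6.36, 7.52 and 7.17 in controls 1 to 3. Control 1 lay within the mutant range and the other controls above it. The means were 6.29 ± 0.10 in mutants and 7.02 ± 0.59 in controls (SD, n = 3 each), a log2 difference of -0.73 (SE 0.28, limma adjusted p = 0.469), or 1.66-fold lower. Mcm6 read 7.48, 7.78 and 7.61 in mutants, and 7.17, 8.40 and 8.34 in controls, so that control 1 was the lowest array (difference -0.35, SE 0.33). Mcm7 read 7.04, 6.72 and 6.87 in mutants, and 6.68, 7.34 and 7.07 in controls. Its control 3 was hardly above mutant 1, and its difference was the smallest of the subunits (-0.15, SE 0.18). Mcm3 (-0.49), Mcm4 (-0.34) and Mcm5 (-0.61) had the same order, with controls 2 and 3 above all other arrays. The helicase activator Cdc45 had a difference of -0.43, with the mutant mean at the level of control 1. Cdc6, which loads the helicase on origins, had one of -0.21 at a mean of 5.03, and its control 3 (5.12) lay below mutant 3 (5.16).

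Genes of nucleotide supply and the fork had a median difference of -0.20 over 4 genes. Ribonucleotide reductase makes deoxyribonucleotides from a large subunit, Rrm1, and a small one, Rrm2, whose level follows S phase. Rrm2 read 5.77, 5.98 and 5.27 in mutants, and 5.97, 7.62 and 7.48 in controls. Controls 2 and 3 stood far above the other arrays, and control 1 lay inside the mutant range, just under mutant 2. Its log2 difference of -1.35 (SE 0.45, 2.55-fold lower, limma adjusted p = 0.409) was the largest of the 40 genes. Rrm1 differed by -0.31 (SE 0.34) and Tyms, thymidylate synthase, by -0.10 (SE 0.20), both with control 1 as the lowest array. Pcna, the sliding clamp, read 9.97, 10.19 and 10.20 in mutants, and 9.97, 10.32 and 10.28 in controls, a difference of -0.07 (SE 0.13). PCNA also acts in DNA repair, and its values spread less over the arrays than those of most of the other genes. A pair of rows named Pcna and gave nearly equal values (difference -0.07 in both), so they are no independent measurement.

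Uhrf1 was listed with the regulators of S phase entry, although it keeps DNA methylation at the fork. It read 6.19, 6.14 and 5.95 in mutants, and 5.99, 6.97 and 6.94 in controls (difference -0.54, SE 0.27, limma adjusted p = 0.580). Control 1 lay within the mutant range. The cyclin E genes Ccne1 and Ccne2 differed by -0.43 (SE 0.24) and -0.24 (SE 0.19). E2f1, a transcription factor that activates S phase genes, read 5.97, 5.91 and 5.66 in mutants, and 5.84, 5.95 and 5.92 in controls. Its groups overlapped (difference -0.06, SE 0.10), and it was among the genes that followed the others least, with a Pearson r of 0.49 over the 6 arrays to the mean of the other 39 genes, given as a description.

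The drivers of mitosis were lowest in control 1. Ccna2, cyclin A2, which acts in S phase and in entry to mitosis, read 7.11, 7.30 and 6.96 in mutants, and 6.26, 8.76 and 8.65 in controls. Every mutant array lay above control 1 and below controls 2 and 3. The control SD of 1.42, against 0.17 in mutants, went with the largest SE of the 40 genes for its difference of -0.77 (SE 0.65, limma adjusted p = 0.776). Ccnb2, cyclin B2, read 7.76, 7.27 and 7.23 in mutants, and 6.52, 8.43 and 8.39 in controls (difference -0.36, SE 0.52). Cdk1, the kinase that both cyclins activate, read 6.84, 6.50 and 6.42 in mutants, and 5.70, 7.35 and 7.09 in controls (difference -0.13, SE 0.42). The promoter of Cdk1 printed above carries CHR, CCAAT and E2F letters together.

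Mitotic kinases showed both kinds of order. Aurkb, the kinase of the chromosomal passenger complex that corrects wrong attachments, read 5.63, 5.54 and 5.82 in mutants, and 5.76, 7.25 and 6.97 in controls. Control 1 lay inside the mutant range, and the difference of -0.99 (SE 0.37, 1.99-fold lower, limma adjusted p = 0.453) was the largest of the mitotic genes. Aurka, which acts at spindle poles, read 6.89, 6.47 and 6.47 in mutants, and 6.21, 7.04 and 6.95 in controls (difference -0.12, SE 0.25). Cdc20, the activator of the anaphase promoting complex, read 6.59, 6.48 and 6.47 in mutants, and 5.80, 7.08 and 6.93 in controls. The mutants lay close together between control 1 and the other controls (difference -0.09, SE 0.32). Plk1, a kinase of entry into and exit from mitosis, differed by -0.42 (SE 0.43) and Ttk, the checkpoint kinase also called Mps1, by -0.43 (SE 0.23) at a mean of 4.54, close to the arrays' lower quartile of 4.42 to 4.50. Melk, a kinase often high in cycling cells, differed by -0.17 (SE 0.17). It read 6.11, 5.98 and 6.07 in mutants, and 6.31, 6.50 and 5.86 in controls, with control 3 as the lowest array and an r of 0.09 to the mean of the other genes.

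Kinetochore and checkpoint genes had a median difference of -0.50 over 6 genes. Cenpa, the histone H3 variant that marks centromeres, read 6.34, 6.54 and 6.23 in mutants, and 6.59, 7.49 and 7.27 in controls. All mutants lay below all controls, although control 1 exceeded mutant 2 by little. Its means were 6.37 ± 0.16 in mutants and 7.12 ± 0.47 in controls (difference -0.75, SE 0.24). Bub1, a checkpoint kinase, read 5.15, 5.96 and 5.45 in mutants, and 4.51, 6.54 and 6.21 in controls, and its difference was the smallest of this group (-0.23, SE 0.53). The checkpoint protein gene Bub1b differed by -0.38, Birc5, survivin, by -0.63, the kinetochore motor gene Cenpe by -0.74 and Cenpf by -0.25. For these 4 genes the mutants again lay between control 1 and the other controls.

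Spindle motors and assembly factors had a median difference of -0.20 over 5 genes, the nearest to 0 of the mitotic roles. Kif11, the motor that pushes spindle poles apart, read 7.36, 7.33 and 7.40 in mutants, and 6.10, 7.72 and 7.54 in controls. The mutant SD was 0.035, the mutant mean lay 1.26 above control 1, and the other controls were slightly higher than the mutants, which gave a difference of 0.24 (SE 0.41, limma adjusted p = 0.915). Nusap1, a microtubule-binding protein, read 6.03, 6.27 and 5.78 in mutants, and 5.77, 7.004 and 6.96 in controls (difference -0.55, SE 0.34). Tpx2, which activates Aurora A on the spindle, differed by -0.52, and the motors of cell cleavage Kif20a and Kif23 by -0.20 and -0.015, the last of which turned positive under both other scalings.

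Genes of chromosome structure had a median difference of -0.61 over 4 genes. Mki67, the gene of the proliferation antigen Ki-67 that coats mitotic chromosomes, read 6.93, 7.60 and 6.92 in mutants, and 6.62, 8.50 and 8.60 in controls (difference -0.76, SE 0.54, limma adjusted p = 0.717). Top2a, the topoisomerase that untangles sister chromatids, read 6.95, 7.41 and 6.87 in mutants, and 6.06, 8.36 and 8.32 in controls (difference -0.50, SE 0.62). For both genes mutant 2 was the highest mutant and control 1 the lowest array. A dimmer second row of Top2a, with a mean of 4.07, differed by -0.17. Ncapd2, a condensin subunit, read 6.22, 6.40 and 5.89 in mutants, and 6.33, 6.99 and 7.06 in controls (difference -0.63, SE 0.23, limma adjusted p = 0.442). Its control 1 lay within the mutant range, just below mutant 2. Ncapg, another condensin subunit, differed by -0.59 (SE 0.38).

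S phase and mitotic genes were also set apart by where control 1 stood. For mitotic genes, control 1 lay below every mutant array in 19 of 24, and for S phase genes in 9 of 16, against 24.7% of all genes. The mutant mean exceeded control 1 by a median of 0.41 for mitotic and 0.15 for S phase genes, and lay above it for 20 of 24 and 13 of 16 genes (49.2% of all genes). Against the mean of controls 2 and 3 the mutant mean was lower for all 24 mitotic and all 16 S phase genes (41.3% of all genes), with medians of -0.88 and -0.67. The differences from control 1 ran from -0.25 (Melk) to 1.26 (Kif11) for mitotic genes and from -0.29 (Rrm2) to 0.46 (Rrm1) for S phase genes. The controls were split by the order seen in these same genes, so a lower mutant mean against controls 2 and 3 restates that order. The median gap from control 1 up to the mean of controls 2 and 3 was 1.32 for mitotic and 0.82 for S phase genes. The contrast between both sets was not tested.

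**Figure D3:**
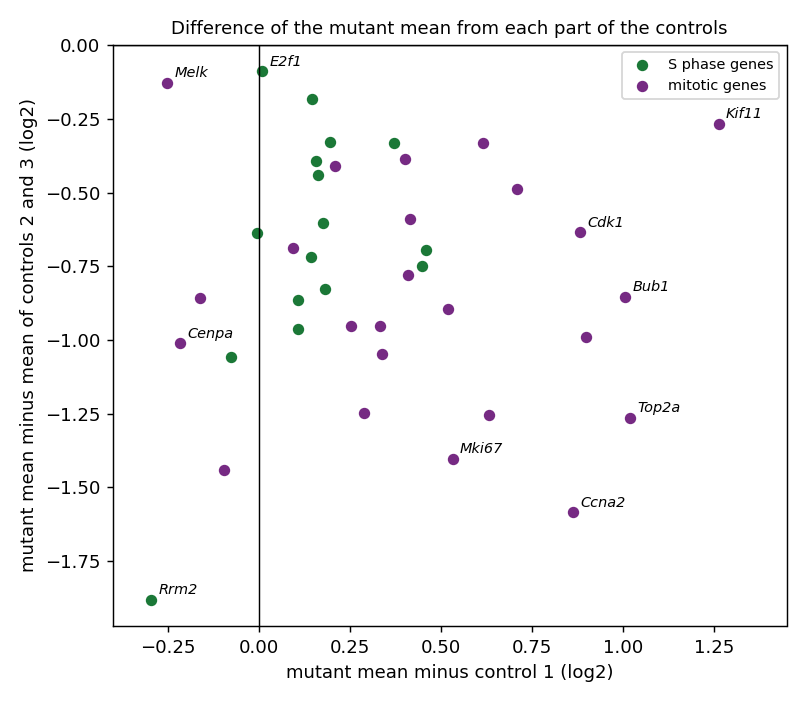
Mutant mean minus control 1 (horizontal axis, log2) and mutant mean minus the mean of controls 2 and 3 (vertical axis, log2) for each gene, S phase in green and mitosis in purple. All 40 points lie below 0 on the vertical axis, and on the horizontal axis S phase genes stay between -0.29 and 0.46 while mitotic genes reach 1.26. The split of the controls follows the values of these same genes.

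Most of the genes varied together over the 6 arrays. Of the 40 genes, 29 had a Pearson r of at least 0.90 to the mean of the others, a description over arrays that share their normalisation. Ccna2 (r = 0.99), Birc5 (0.99) and Ncapg (0.99) followed the mean most closely, and Melk (0.09), E2f1 (0.49) and Kif11 (0.72) least. Among 3055 other named genes with an SD of at least 0.3 over the arrays, the 10 with the highest r to the mean of the 40 genes were Lcn2, Incenp, Aspm, Panx1, H1f1, Ipcef1, Cxcl5, Ncaph, Sema4d and Ddx39a (r from 0.998 to 0.990). Of these, Incenp, Aspm and Ncaph belong to the mitotic machinery and H1f1 encodes a linker histone. Lcn2, an epithelial and neutrophil siderophore-binding protein, read 11.03, 11.08 and 10.79 in mutants, and 10.38, 12.73 and 12.44 in controls. Cxcl5, a neutrophil chemokine, read 5.50, 5.74 and 5.58 in mutants, and 4.75, 7.29 and 7.18 in controls.

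Other genes of the cell cycle were read from 9 lists of regulators and machinery, with 162 of 165 genes measured. With adjustment over all genes 0 of 162 passed, against 0.266% of all genes. At an unadjusted limma p under 0.05, 14 of 162 were lower and 5 of 162 higher in mutants (4.17% and 5.9% of all genes). The mutant mean was lower for 112 of 162, against 45.4% of all genes, and the median difference was -0.14. The lowest median differences were -0.25 for spindle and cytokinesis genes (17 of 21 below 0), -0.22 for kinetochore genes (25 of 30) and -0.21 for replication polymerases and fork proteins (23 of 26). Medians lay closer to 0 for origin licensing genes (-0.03, 12 of 18 below 0), cohesin and condensin genes (-0.07, 10 of 16), G1 cyclins and their kinases (0.0038, 5 of 10), Rb, E2F and DREAM genes (-0.11, 13 of 19) and CDK inhibitors (-0.09, 3 of 6), and above 0 for the anaphase promoting complex (0.08, 4 of 16 below 0). Many of these genes are also used by resting cells.

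**Figure D4:**
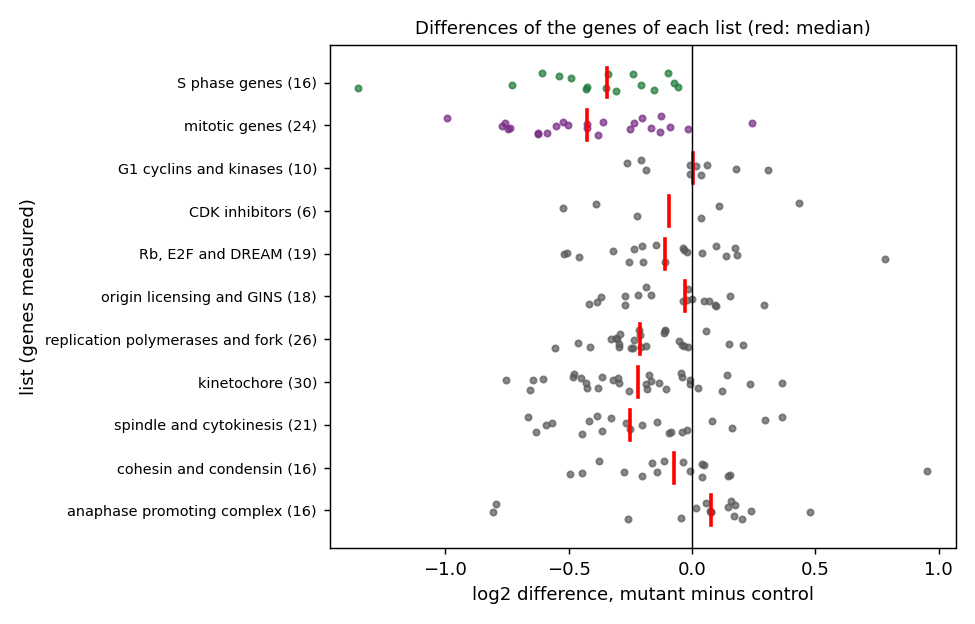
Log2 difference, mutant minus control, of every measured gene (points) in the S phase and mitotic genes and in 9 lists of other cell cycle genes, with the median of each list in red. Medians of the S phase and mitotic genes are -0.35 and -0.43, and those of the other lists lie between -0.25 and 0.08.

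Among transcription factors of the cycle, Foxm1, the forkhead factor that activates mitotic genes, read 5.76, 5.78 and 5.75 in mutants, and 5.79, 6.41 and 6.65 in controls. All mutants lay below all controls, though control 1 lay just above mutant 2 (difference -0.52, SE 0.21, limma adjusted p = 0.489). Mybl2, B-Myb, differed by -0.25, E2f2 by -0.14 and E2f8 by -0.46. Lin9 and Lin37 of the DREAM complex, which represses cell cycle genes in resting cells, differed by -0.32 and -0.20. Rbl1, the Rb relative p107, had a higher mutant mean, with 6.55, 6.88 and 6.74 in mutants, and 5.45, 6.31 and 6.05 in controls (difference 0.78, SE 0.22, limma adjusted p = 0.333). Control 1 was its lowest array, and the groups did not overlap.

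The cyclin D genes that act early in G1 were close between the groups, with differences of 0.18 for Ccnd1 (SE 0.18) and 0.06 for Ccnd2 (SE 0.09). Of the inhibitors of G1 kinases, Cdkn2c, p18, averaged 7.61 in mutants and 8.13 in controls (difference -0.52, SE 0.17), Cdkn2d, p19, differed by -0.39 (SE 0.15) and Cdkn2b, p15, by 0.43 (SE 0.16), and none passed. In origin licensing, Orc1 differed by -0.17, Cdt1 by -0.27 and Mcm10, which binds the helicase as forks start, by -0.38 (SE 0.13). At the fork, the polymerase subunit gene Pold2 differed by -0.41 (SE 0.16) and the ligase gene Lig1 by -0.46 (SE 0.18).

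Of the kinetochore genes outside the 40, Pmf1 (-0.48), Cenpm (-0.43) and Cenph (-0.45) had the lowest unadjusted p. In the spindle list Cit, citron kinase of cell cleavage, differed by -0.57 (SE 0.15) and Ckap5, a microtubule polymerase, by 0.30 (SE 0.09). The anaphase promoting complex held the gene nearest to the threshold. Anapc4, a subunit of its scaffold, read 8.98, 9.04 and 9.04 in mutants, and 8.57, 8.55 and 8.50 in controls, with a difference of 0.48 (SE 0.07, limma adjusted p = 0.0858). Its groups did not overlap, and control 1 read like the other controls. Anapc10 differed by 0.24 (SE 0.09). Ube2c, the ubiquitin-conjugating enzyme of this complex that is made in mitosis, read 6.86, 6.92 and 6.91 in mutants, and 6.66, 8.27 and 8.18 in controls (difference -0.81, SE 0.42), the order seen in the 40 genes.

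Markers of lymphoid cells moved with controls 2 and 3 as well. The mean log2 value of 12 B cell markers was 5.63, 7.59 and 5.79 in mutants 1 to 3, and 6.15, 9.14 and 8.82 in controls 1 to 3, and that of 12 T and NK cell markers 5.84, 6.69 and 5.82 in mutants, and 6.21, 7.71 and 7.55 in controls. None of these markers passed, where 0.266% of all genes did. The mutant mean was lower for 12 of 12 and 11 of 12, against 45.4% of all genes, and the medians of their differences were -1.79 and -1.11. Plasma cell markers (10 measured) averaged 6.62 to 7.16 in mutants and 6.78 to 8.71 in controls. Genes of lymphoid stroma and homing (7 measured) averaged 6.15 to 6.93 in mutants and 6.36 to 8.61 in controls, and germinal centre markers (10 measured) 6.58 to 6.81 in mutants and 6.57 to 7.26 in controls.

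B cell markers were also high in mutant 2. The B cell marker Ms4a1, CD20, read 4.42, 8.63 and 4.79 in mutants, and 5.36, 9.57 and 9.20 in controls, so mutant 2 stood near controls 2 and 3. The B cell factor gene Pax5 read 5.85, 6.73 and 5.73 in mutants, and 5.83, 8.69 and 8.18 in controls, and the B cell receptor component gene Cd79a 5.59, 8.26 and 5.88 in mutants, and 6.57, 10.33 and 10.29 in controls. The follicle chemokine gene Cxcl13 read 8.28, 10.28 and 8.18 in mutants, and 8.35, 10.53 and 10.36 in controls. The cell division genes of mutant 2 averaged 6.42, against 6.31 and 6.23 in the other mutants. Mutant 2 was the highest mutant for 21 of 40 of them, against 34.5% of all genes. These were 15 of 24 mitotic genes and 6 of 16 S phase genes, the latter near that share. For B cell markers it was the highest mutant in 11 of 12. This was not particular to B cells, with 10 of 11 myeloid and 9 of 9 cardiac muscle markers, but 0 of 10 ciliated and 1 of 9 basal cell markers. Mybl1, A-Myb, which is known from germinal centre B cells, read 5.55, 5.36 and 5.23 in mutants, and 5.42, 6.13 and 6.12 in controls. Not all germinal centre markers followed this order: Bcl6 read 10.12, 10.01 and 10.05 in controls (difference -0.055) and S1pr2 6.93, 6.80 and 7.07 (difference 0.0086). Controls 2 and 3 both stood above every other array for 5 of 10 germinal centre markers, against 9.61% of all genes. The part of lymphoid cells in the differences of the cell division genes was not tested.

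**Figure D5:**
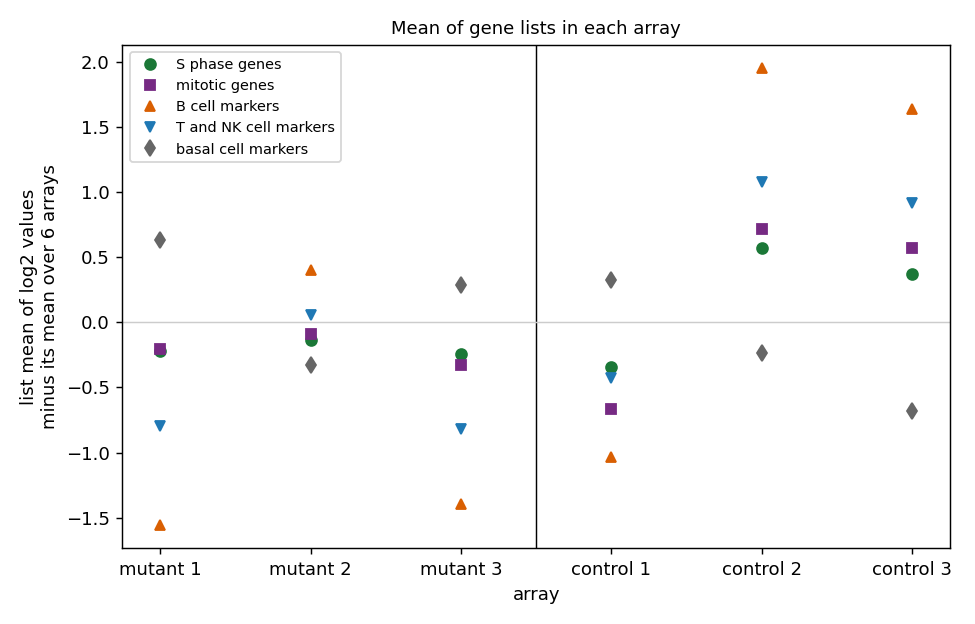
Mean log2 value of a gene list in each array minus its mean over the 6 arrays, for S phase genes, mitotic genes and markers of B cells, T and NK cells and basal cells, with mutants left of the line and controls right. All lists but the basal cell markers are highest in controls 2 and 3, and in mutant 2 the B cell markers average 7.59 against 5.63 and 5.79 in the other mutants, while the mitotic genes average 6.25 against 6.13 and 6.01.

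Markers of other tissues marked control 1. Cardiac muscle markers (9 measured) averaged 9.78, 10.98 and 8.41 in mutants, and 11.33, 8.88 and 9.57 in controls, and adipocyte markers (7 measured) 7.83, 8.48 and 7.46 in mutants, and 9.30, 6.99 and 7.75 in controls. Both lists were highest in control 1, the array with the lowest cell division values. Basal cell markers (9 measured), of the stem cells of the proximal airway, averaged 8.19, 7.23 and 7.85 in mutants, and 7.88, 7.32 and 6.88 in controls, and their defining genes Krt5 and Trp63 read 6.73 to 8.93 and 6.58 to 7.63 in mutants, and 6.43 to 8.17 and 6.31 to 7.79 in controls. Club cell markers (9 measured) averaged 11.50 to 11.62 in mutants and 11.19 to 11.36 in controls, ciliated cell markers (10 measured) 8.76 to 9.504 in mutants and 9.25 to 9.60 in controls, myeloid markers (11 measured) 8.40 to 9.04 in mutants and 8.63 to 8.76 in controls, alveolar type 2 markers (9 measured) 10.98 to 11.14 in mutants and 10.66 to 10.83 in controls, and smooth muscle markers (7 measured) 10.55 and 10.83 in mutants 2 and 3 and 10.62 and 10.61 in controls 2 and 3, with mutant 1 and control 1 above these. Of all these marker genes 1 passed, where 0.266% of all genes did. It was the club cell gene Upk3a, named after its value was seen (limma adjusted p = 0.0264). The part of tissue makeup in the cell division values was not tested.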

How the data were processed

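RNA of 6 airway samples was measured on 1-colour Affymetrix arrays. The deposited table holds log2 values, which the authors made with oligo (RMA) and limma, per the submitters' processing notes, and the sources used here give no versions. The RMA method sets the probe intensities of all arrays to 1 distribution, so a shift shared by all genes would largely not be seen, and dim genes are compressed. The deposited values still differed slightly, with array medians of 5.89 to 5.95.

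Of 35556 rows, 21789 had 1 gene symbol in the platform annotation, 1621 several and 12146 none, which left 19938 genes (999 with several rows). Mutant and control arrays were compared with limma 3.58.1 (lmFit and eBayes, R 4.3.3) with genotype as the only term, Benjamini-Hochberg adjustment over all genes and a threshold of 0.05. The script was tested on simulated data. Alternatives were other scalings, a filter on dim genes, other rows, array weights, the replicate block, other eBayes settings and leaving out arrays. The number of arrays limits the precision.

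Every gene of the list was given its difference. Array values were given, in each role, for the genes with the lowest p, the highest mean and the difference most opposed to the median. Of each pathway list up to 3 genes by lowest p under 0.05 (unadjusted) were named, with well-known regulators, defining markers and the 10 genes most like the mean. The genes and lists were chosen with earlier results of these data known. Promoter windows were searched with Python 3.11.15.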

Additional observations from a re-analysis of the deposited data

How the results depend on the processing

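The number of genes called in either direction (53) was 0 with the replicate block (limma; 1945 genes at an unadjusted p under 0.05), 291 with array weights and 82 with an intensity trend, and 9 to 388 when 1 array was left out. The labels do not say whether mutant and control arrays of the same number belong together. Deviations of same-numbered arrays from their group means correlated at 0.136, -0.0907 and -0.0398. Mutant 1 correlated best with its own number, and mutants 2 and 3 with another. With 3 arrays a group these values cannot settle whether the arrays are paired. The count of cell division genes called was 0 to 16 when 1 array was left out, 16 without control 1. The median difference of S phase genes was then -0.67 to -0.13 and that of mitotic genes -0.88 to -0.15. With array weights, lowest for mutant 2 and control 1, the medians were -0.54 and -0.73. There 0 of 40 genes were called. At an unadjusted limma p under 0.05, 24 of 40 were lower, where 19.1% of all genes passed in either direction. Without control 1 and mutant 2 together the median difference was -0.70 for S phase and -0.94 for mitotic genes. In that setting 22 of 40 genes were called lower, where 643 of all 19938 genes were called lower and 4.83% in either direction. Control 1 had the lowest mean of the 40 genes among controls and mutant 2 the highest among mutants. A larger mean difference therefore follows from leaving both out. The median difference was 0.15 and 0.41 for S phase and mitotic genes without controls 2 and 3 together. Kif23 turned to 0.022 with repeated quantile normalisation and 0.020 with median centring, and with array weights Melk turned to 0.011 and Kif11 to -0.00097. When 1 array was left out, the difference of Aurka ran from -0.39 to 0.031, of Bub1 from -0.85 to 0.16, of Cdc20 from -0.49 to 0.15, of Cdk1 from -0.63 to 0.19, of E2f1 from -0.12 to 0.037, of Kif11 from -0.27 to 0.54, of Kif23 from -0.33 to 0.16, of Mcm7 from -0.33 to 0.0023, of Pcna from -0.18 to 0.0044 and of Tyms from -0.33 to 0.033. Of 231 single-gene values under the other settings, 227 kept their direction and their side of the threshold. The filter on dim genes and the replicate block cannot change a difference. Averaging a gene's rows changes it only for Pcna and Top2a. In these settings the direction of the other genes was kept by construction, so the count is no measure of stability. The causes were not tested. With 3 arrays a group and 9 of the 40 genes below a mean of 5.885, small differences were not detectable. Larger ones could be missed too. Rrm2 was 2.55-fold and Aurkb 1.99-fold lower in mutants, and neither passed (limma adjusted p = 0.409 and 0.453).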

Other observations

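Some cell cycle genes outside the 40 had a higher mutant mean, and they were picked after their values were seen. Sgo2a, shugoshin 2, which protects cohesin at centromeres, read 6.93, 7.15 and 6.77 in mutants, and 4.996, 6.65 and 6.34 in controls (log2 difference 0.95, SE 0.41, limma adjusted p = 0.518). Its groups did not overlap, and control 1 was the lowest array. Anln, anillin of the cleavage furrow, read 8.26, 7.84 and 7.80 in mutants, and 7.80, 7.51 and 7.49 in controls (difference 0.36, SE 0.16, limma adjusted p = 0.508). Zwint, a kinetochore protein, differed by 0.36 (SE 0.19). None passed.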
